A study of Homo sapiens with 12 samples.

Results

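The genes described here encode the T-cell receptor complex and the proteins that carry its signal: the receptor's CD3 and zeta chains, the coreceptors, surface markers of the T lineage, phosphatases, kinases, adaptors, enzymes and exchange factors, and the transcription factors at the end of the pathway. They are 52 genes listed by name, and the list was drawn up with earlier results of these data known. On the Affymetrix HG-U133 Plus 2.0 array 19775 genes have a probe set with 1 gene symbol. A probe set is a group of short probes for 1 transcript, and each gene was represented by the probe set with the highest mean over the 12 arrays. A probe set was found for 51 genes; GRAP2 was not analysed here. Of these, 47 passed the filter of a log2 value of at least 4 on at least 3 arrays, as did 9947 genes in all, and all 47 were at or above 4 on all 12 arrays. The other 4, CD2, CD28, CD96 and TXK, were below it.

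The cells were CCRF-CEM-C7H2, an established line of T-cell acute lymphoblastic leukaemia that glucocorticoids kill. They were cultured either with dexamethasone, a synthetic glucocorticoid, at 100 nM, or with its carrier ethanol at 0.1%, for 6 h or for 24 h. Each of these 4 groups has 3 arrays, 1 from each independent experiment, numbered 0, 1 and 3 (6 h) or 1, 2 and 3 (24 h); values are given in that order below. The study asked which primary microRNA transcripts respond to the drug; the same arrays measure the T-cell receptor genes. All groups are 1 line of 1 subclone with no untreated or resistant cells beside it, so p-values measure the spread between experiments on that line. The main fit has no term for the experiment. Shifts shared by both arrays of an experiment are therefore counted in that spread. Values are log2 expression, and a difference is dexamethasone minus ethanol on the log2 scale, ± standard error from limma, with adjusted p by Benjamini-Hochberg over all 23265 tested probe sets and a threshold of 0.05. Levels of different genes cannot be set against each other, because each probe set has its own response.

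The arrays were alike in total, with between 41.3% and 42.1% of 54675 probe sets at or above 4. Codes in the labels divide them into 3 batches: the dexamethasone arrays at 6 h, the ethanol arrays at 6 h, and all 24 h arrays. At 6 h batch and treatment therefore cannot be told apart, while the 24 h comparison lies within 1 batch. Control probe sets for added bacterial transcripts (12 poly-A spike probe sets) were higher with dexamethasone by 0.51 at 6 h and by 0.40 at 24 h, and the 9 hybridization control probe sets by 0.36 and 0.37. Setting the spikes equal lowers every difference by that amount and the median of all genes with it, from -0.00 to -0.52 at 6 h and from -0.02 to -0.42 at 24 h; counts after this step are called the spike scale below. The glucocorticoid receptor NR3C1 rose by 1.94 and 1.95 and its target FKBP5 by 2.57 and 3.13 at 6 h and 24 h. Of the T-lineage markers CD3D, CD3E, CD3G, CD247, CD7, CD5 and CD1A were above 4 on all arrays and CD2 on none. Of markers of other cells, 6 of 6 myeloid, 4 of 6 B-cell, 4 of 6 NK-cell, 2 of 3 erythroid and 4 of 5 stromal genes were below 4 on all 12 arrays. The mean over the NK-cell list was 3.20 to 3.29 with ethanol and 4.01 to 4.17 with dexamethasone at 24 h, where KLRD1 went from 2.03, below the filter, to 6.11 and NKG7 rose by 0.94; the defining NK-cell genes NCAM1 and NCR1 stayed below 4. The mean over the B-cell list was 4.64 to 4.70 with ethanol and 4.93 to 5.01 with dexamethasone at 24 h. In that list CD79A and CD79B passed the filter, and MS4A1, PAX5, CD22 and BLNK were below 4 on all 12 arrays. The list mean does not give the levels of CD79A and CD79B, because the genes below 4 lower it. At 24 h CD79A rose by 1.55 and CD79B differed by 0.25, not past the test. The part of other cells in the results was not tested. In bulk RNA fewer cells with a transcript and less of it per cell cannot be told apart.

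The T-cell receptor recognises a peptide on an MHC molecule but has no enzyme activity of its own. The coreceptors CD4 and CD8 bring the kinase LCK to it, LCK phosphorylates the CD3 and zeta chains, and ZAP70 binds there and phosphorylates the adaptors LAT and SLP-76 (the product of LCP2). These assemble PLCG1, VAV1 and GRB2, from which calcium, RAS and NF-kB signals run to the NFAT factors and to the BCL10-MALT1 complex. LCK is held back by the kinase CSK and released by the phosphatase CD45 (PTPRC), and phosphatases and the ubiquitin ligase CBL-B damp the signal. In the thymus the same signal decides between survival and death of immature T cells, which glucocorticoids also kill.

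Promoter sequence was looked up for the members that rose at both times and, among the other members past the test at 24 h, for those with a half-site of the glucocorticoid receptor (TGTTCT, or AGAACA on the other strand), because the receptor binds such sites; only windows outside every annotated gene are shown. They are given 5′ to 3′ on the gene's strand from RefSeq (GRCh38.p14), with the half-site in capitals. CD53 (chr1:110870960-110871209) and UBASH3B (chr11:122655472-122655721), both on the plus strand, are the 250 bases before the start site, with no half-site. SIT1 (chr9:35650942-35651041) and THEMIS (chr6:127918596-127918695), both on the minus strand, are 100 bases around a half-site whose first base lies at -63 and -23 from the start site.
CD53: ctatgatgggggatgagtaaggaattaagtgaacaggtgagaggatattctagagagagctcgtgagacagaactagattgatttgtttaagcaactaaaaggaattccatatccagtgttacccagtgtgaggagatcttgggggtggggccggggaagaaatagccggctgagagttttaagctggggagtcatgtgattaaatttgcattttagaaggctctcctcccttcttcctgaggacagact
UBASH3B: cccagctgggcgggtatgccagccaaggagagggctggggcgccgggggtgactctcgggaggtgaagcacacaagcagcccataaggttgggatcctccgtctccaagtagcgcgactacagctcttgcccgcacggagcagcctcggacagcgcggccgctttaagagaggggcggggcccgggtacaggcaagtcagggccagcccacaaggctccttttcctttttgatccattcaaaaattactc
SIT1: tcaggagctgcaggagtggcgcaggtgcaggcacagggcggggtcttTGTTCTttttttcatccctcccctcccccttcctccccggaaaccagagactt
THEMIS: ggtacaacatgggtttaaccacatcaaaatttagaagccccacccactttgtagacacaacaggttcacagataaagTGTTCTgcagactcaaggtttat
The promoter table held 37 of the 47 tested members. The half-site was in 4 of 33 windows of 250 bases of members that rose at 24 h (12.1%; FYN, PTPRC, SIT1 and THEMIS), in 1 of 15 of those that fell (6.67%; CSK) and in 2 of 14 of the others (14.3%), against 12.4% of all 35116 windows. The core of the RUNX site (TGTGGT, or ACCACA on the other strand), a factor of T-cell development, was in 4 of 33, 3 of 15 and 2 of 14, against 11% of all; the THEMIS window holds both motifs, without overlap. The half-site's share among windows of risen members was thus near that of all windows. Those 33 windows belong to 17 genes, 4 of them with the half-site, and no share by gene is given for all promoters. A match is a string of letters, not a bound site.

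At 24 h dexamethasone had moved most of these genes, in both directions. Of the 47 tested, 21 rose and 15 fell (36 in all, 76.6%), where 52% of all tested genes passed the test, 23.9% up and 28.1% down. The median difference was 0.17 over the members and -0.02 over all genes. The 3 arrays of one treatment did not overlap those of the other for 39 members, against 65.8% of all genes. On the spike scale 7 rose and 18 fell, where 8.1% and 49.6% of all genes did. CD8A, CD53, CD99, UBASH3B, TRAT1, THEMIS and CBLB were the rises past the test on both scales. All 15 falls were past it on both, but setting the spikes equal lowers every 24 h difference by 0.40, so no fall could turn. Cyclic loess, another scaling of the arrays, ended the calls of CD1A, CD5, CD38, GRB2 and LCK (LCK adjusted p = 0.131). With the hybridization controls set equal, CD99 (adjusted p = 0.072) and TRAT1 (0.104) did not pass, and CD8A, CD53, UBASH3B, THEMIS and CBLB did. Of the 21 rises 17 had the same sign on the spike scale, and CD3D (-0.03), SIT1 (-0.09), PLCG1 (-0.03) and BCL10 (-0.12) turned negative. The rises were not in 1 layer of the pathway: they included coreceptors, the phosphatases UBASH3B and PTPRC, the ligase CBLB and the adaptors THEMIS, TRAT1 and LAT. The falls included CSK, its anchor PAG1, and CD1 genes.

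At 6 h few had moved. UBASH3B and CD53 rose, and CD1D, PTPN22, RASGRP1, NFATC2 and NFATC3 fell, 7 of 47 (14.9%), where 6.49% of all genes passed the test, 2.72% up and 3.77% down. The median was 0.00 over the members and -0.00 over all genes. The arrays of the treatments did not overlap for 13 members, against 25.4% of all genes. Blocking by experiment gave 5 rises and 6 falls (6.08% and 7.53% of all genes), CD8A, LAT and PLCG1 joining the rises and TRAT1 the falls. On the spike scale 3 rose and 30 fell, where 1.01% and 70.8% of all genes did, and all 7 kept their direction and their call. That step lowers every difference, so the falls among the 7 could only keep their direction. LAT and PLCG1 turned negative on the spike scale at 6 h (-0.14 and -0.25), and CD8A was at 0.61. Without the dexamethasone array of experiment 3, or without the ethanol array of experiment 0, 4 passed. All 7 also passed at 24 h, 6 in the same direction. PTPN22 had turned round, but its 24 h difference was 0.02 on the spike scale.

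**Figure D1:**
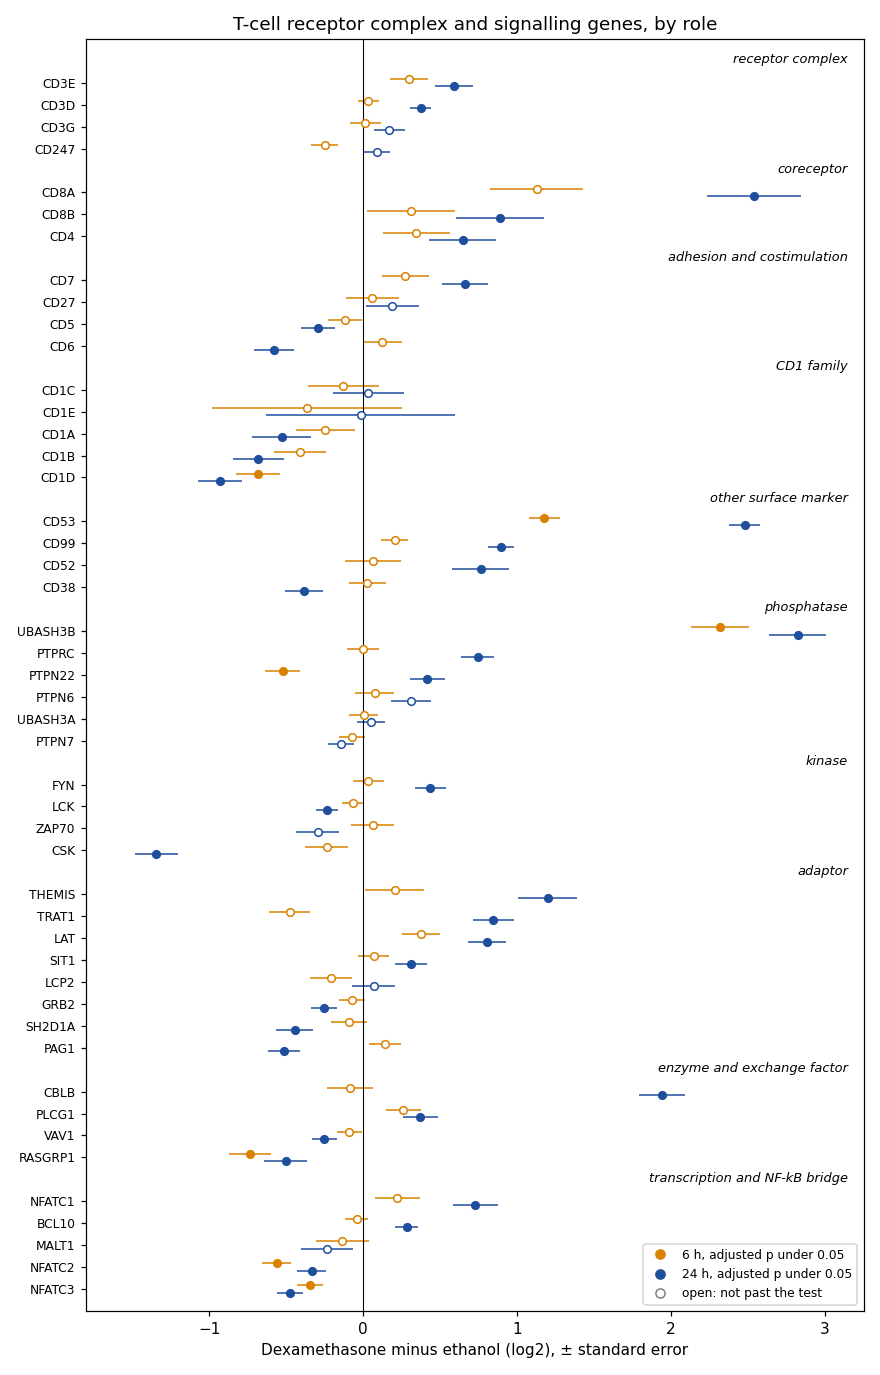
Difference between dexamethasone and ethanol (log2, horizontal axis) for each of the 47 tested genes, grouped by role, at 6 h (orange) and 24 h (blue). Points are differences of group means, bars the standard error from limma, and filled points passed the test (21 rises and 15 falls at 24 h, 2 and 5 at 6 h). On the spike scale every point lies 0.51 (6 h) or 0.40 (24 h) further left, and CD3D, SIT1, PLCG1 and BCL10 are below 0 at 24 h.

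The chains of the receptor complex itself shifted little. Of 4 tested, CD3E and CD3D rose at 24 h, and CD3G and CD247 did not pass the test. CD3E, the signalling chain shared by both CD3 dimers, read 11.11, 10.99 and 11.07 with ethanol and 11.65, 11.69 and 11.59 with dexamethasone at 24 h, without overlap, a rise of 0.59 ± 0.13 (adjusted p = 0.00278); at 6 h its difference was 0.30 (adjusted p = 0.215; 0.0485 without the dexamethasone array of experiment 0). CD3D, which pairs with CD3E, read 13.87, 13.87 and 13.92 against 14.19, 14.22 and 14.36, a rise of 0.37 ± 0.07 (adjusted p = 0.000936), and 0.03 at 6 h. All 3 dexamethasone arrays of CD3D lay above the ethanol arrays, but on the spike scale its difference was -0.03, and that of CD3E was 0.19 (adjusted p = 0.358). CD3G, the gamma chain, read 10.68, 10.55 and 10.83 with ethanol and 10.91, 10.75 and 10.91 with dexamethasone at 24 h, with overlap (0.17 ± 0.10, adjusted p = 0.197). CD247, the zeta chain that carries most of the phosphorylation motifs, read 9.42, 9.45 and 9.51 against 9.46, 9.50 and 9.68 (0.09 ± 0.09, adjusted p = 0.438). At 6 h CD247 read 9.48, 9.58 and 9.61 with ethanol and 9.18, 9.44 and 9.30 with dexamethasone, without overlap (-0.25 ± 0.09, adjusted p = 0.13). The genes of CD3E, CD3D and CD3G lie next to each other on chromosome 11 with no protein-coding gene between them.

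All 3 coreceptor genes rose at 24 h, CD8A by far the most. CD8A, whose product forms both CD8 dimers, read 4.81, 5.19 and 5.00 with ethanol and 7.40, 7.42 and 7.80 with dexamethasone, a 5.81-fold rise (2.54 ± 0.30, adjusted p = 5.49e-05). Its ethanol arrays at both times lay little above the filter of 4. At 6 h CD8A read 4.49, 5.44 and 4.51 against 5.52, 6.60 and 5.70. Each dexamethasone array was above its own experiment's ethanol array by 1.03 to 1.19 and the groups did not overlap, yet the array-to-array spread left the difference at 1.13 ± 0.30 (adjusted p = 0.0556; 0.00209 when blocked by experiment). It passed without the ethanol array of experiment 1 (adjusted p = 0.0197) or the dexamethasone array of experiment 0 (adjusted p = 0.0444). CD8B, the partner chain, whose gene is the neighbour of CD8A, read 6.97, 6.79 and 6.89 against 7.75, 7.86 and 7.69 at 24 h, again without overlap, a rise of 0.89 ± 0.29 (adjusted p = 0.0246), or 0.49 with spikes set equal (adjusted p = 0.0862). CD4, the coreceptor for MHC class II, read 9.37, 9.41 and 9.53 against 10.04, 9.92 and 10.27, without overlap (0.65 ± 0.22, adjusted p = 0.0296; with spikes set equal 0.24, adjusted p = 0.347). At 6 h CD4 and CD8B differed by 0.34 and 0.31 with overlapping arrays and did not pass. Blocked by experiment both passed at 24 h (adjusted p = 0.00129 for CD4 and 0.000353 for CD8B). The omissions that follow were fitted without the block. The call for CD4 was lost without any 1 of the 24 h arrays other than the dexamethasone array of experiment 2, and that for CD8B without any 1 other than the ethanol array of experiment 1; the highest adjusted p was 0.102 for CD4 (without the dexamethasone array of experiment 3) and 0.0705 for CD8B (without the ethanol array of experiment 2).

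**Figure D2:**
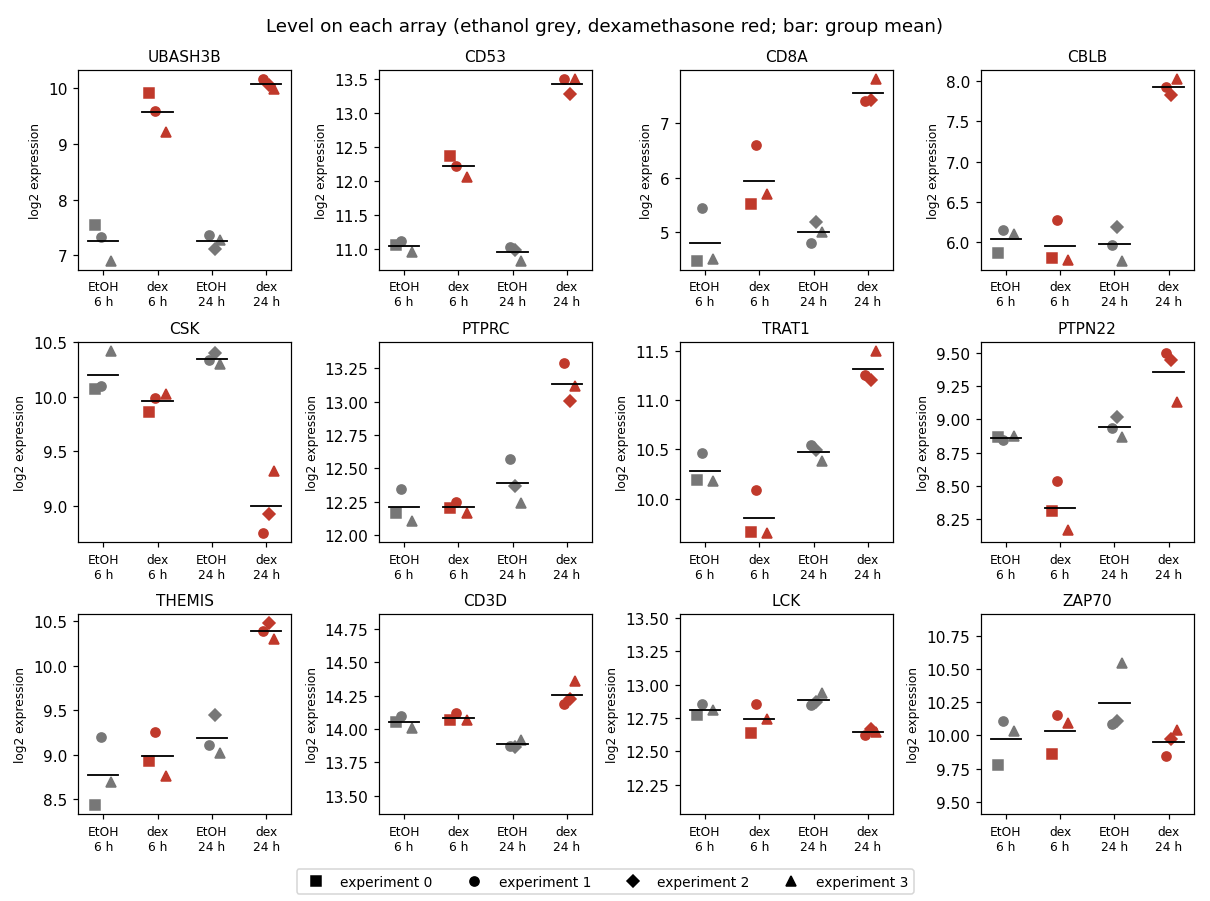
Log2 expression on each of the 12 arrays (vertical axis; each panel has its own range) for 12 genes, ethanol in grey and dexamethasone in red, with the marker shape giving the experiment and the bar the group mean. UBASH3B and CD53 are separated at both times, CBLB, PTPRC, THEMIS and CD3D at 24 h, CSK is lower at 24 h (9.0 against 10.35), and PTPN22 is below ethanol at 6 h and above it at 24 h; the spike scale turns CD3D to -0.03.

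The adhesion and costimulatory genes split. Of 7 listed, CD2, CD28 and CD96 were below 4 on all 12 arrays, with highest group means of 2.23, 2.71 and 2.57; of the 4 tested, CD7 rose and CD6 and CD5 fell at 24 h, and none passed at 6 h. CD6, a receptor that tunes T-cell activation, read 9.05, 9.20 and 9.09 with ethanol and 8.56, 8.66 and 8.38 with dexamethasone, without overlap (-0.58 ± 0.13, adjusted p = 0.00335), and all 4 of its tested probe sets fell. CD5, a related inhibitory receptor whose gene neighbours CD6, read 7.46, 7.38 and 7.29 against 6.98, 7.20 and 7.07, a fall at the edge of the threshold (-0.29 ± 0.11, adjusted p = 0.0489; 0.0514 when blocked by experiment). That call was lost without any 1 of 9 arrays: the ethanol arrays at either time, the dexamethasone array of experiment 3 at 6 h, or the dexamethasone array of experiment 1 or 3 at 24 h, with the highest adjusted p at 0.151 without the dexamethasone array of experiment 1 at 24 h. Its other tested probe set was at -0.39 and did not pass (adjusted p = 0.0852). CD7, an early T-lineage marker, rose by 0.66 ± 0.15 (with spikes set equal 0.26, adjusted p = 0.274). CD27, a costimulatory receptor of the TNF receptor family, differed by 0.19 ± 0.17 (adjusted p = 0.4).

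In the CD1 family, whose products display lipids to T cells and mark cortical thymocytes, 3 of 5 genes fell at 24 h and none rose. CD1D, which presents lipids to NKT cells, fell at both times. It read 9.73, 9.34 and 9.39 with ethanol and 8.97, 8.89 and 8.55 with dexamethasone at 6 h (-0.68 ± 0.14, adjusted p = 0.0201), and 8.95, 8.88 and 8.93 against 7.92, 7.81 and 8.23 at 24 h, a 1.9-fold fall (-0.93 ± 0.14, adjusted p = 0.000347). The groups were apart at both times, although the 6 h call was lost without the dexamethasone array of experiment 3 or the ethanol array of experiment 0 (adjusted p up to 0.0675, the latter). CD1B read 5.81, 6.10 and 6.30 against 5.43, 5.12 and 5.62 at 24 h (-0.68 ± 0.17, adjusted p = 0.00629). CD1A read 9.52, 9.32 and 9.31 against 9.0, 8.53 and 9.03 (-0.53 ± 0.19, adjusted p = 0.0421, and 0.00542 when blocked by experiment). Neither pair of groups overlapped, but the call for CD1A was lost without any 1 of 7 arrays, the ethanol arrays at 24 h, the dexamethasone array of experiment 1 or 2 at 24 h, or either array of experiment 0 at 6 h (adjusted p up to 0.153, without the dexamethasone array of experiment 2 at 24 h). CD1C (0.03 ± 0.23) and CD1E (-0.02 ± 0.62) did not pass, and CD1E varied far more between experiments than with the drug: at 24 h its ethanol arrays read 11.50, 11.28 and 9.94 and its dexamethasone arrays 11.50, 11.12 and 10.05. The 5 genes lie side by side on chromosome 1 with no protein-coding gene between them.

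Among the other surface markers CD53, CD99 and CD52 rose at 24 h and CD38 fell. CD53, a tetraspanin of leukocytes, read 11.05, 11.11 and 10.95 with ethanol and 12.37, 12.22 and 12.05 with dexamethasone at 6 h (1.18 ± 0.10, adjusted p = 7.01e-05). At 24 h it read 11.03, 10.99 and 10.83 against 13.50, 13.28 and 13.49, a 5.57-fold rise (2.48 ± 0.10, adjusted p = 2.51e-08). No array of one treatment reached the other at either time. CD99, a surface glycoprotein of thymocytes, read 13.68, 13.66 and 13.83 against 14.60, 14.60 and 14.66 at 24 h (0.89 ± 0.09, adjusted p = 1.08e-05). CD52, the antigen of the antibody alemtuzumab, read 10.09, 10.08 and 9.71 against 10.85, 10.83 and 10.48 (0.76 ± 0.18, adjusted p = 0.00558; with spikes set equal 0.36, adjusted p = 0.166). Its rise was nearly the same in each experiment, from 0.75 to 0.77. CD38, an NAD-consuming enzyme, read 12.14, 12.04 and 12.09 against 11.73, 11.69 and 11.69, without overlap (-0.39 ± 0.12, adjusted p = 0.0235, and 0.000977 when blocked by experiment). Its call was lost without the ethanol array of experiment 1 or 3 or the dexamethasone array of experiment 2 or 3 at 24 h (adjusted p up to 0.0695, without the ethanol array of experiment 1).

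Of 6 phosphatase-type regulators UBASH3B, PTPRC and PTPN22 rose at 24 h and none fell. UBASH3B encodes STS-1, a phosphatase that acts on ZAP70 and damps receptor signalling, and had the largest difference of the 47 genes at both times when each gene is read by its probe set with the highest mean; the other probe set of CD53 was at 3.13 at 24 h. It read 7.54, 7.32 and 6.91 with ethanol and 9.92, 9.60 and 9.21 with dexamethasone at 6 h, a 4.99-fold rise (2.32 ± 0.19, adjusted p = 4.22e-05), and 7.36, 7.11 and 7.27 against 10.17, 10.05 and 9.99 at 24 h, a 7.07-fold rise (2.82 ± 0.19, adjusted p = 7.66e-07). All 4 of its tested probe sets rose at both times. Its close relative UBASH3A (STS-2) differed by 0.00 ± 0.09 at 6 h and by 0.05 ± 0.09 at 24 h (adjusted p = 0.69), with overlapping arrays.

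PTPRC encodes CD45, the phosphatase that removes the inhibitory phosphate from LCK. It read 12.17, 12.35 and 12.11 against 12.20, 12.25 and 12.17 at 6 h, interleaved, and 12.57, 12.37 and 12.24 against 13.29, 13.00 and 13.11 at 24 h, apart (0.74 ± 0.11, adjusted p = 0.000191; with spikes set equal 0.34, adjusted p = 0.142). Its 5 tested probe sets all rose at 24 h, by 0.74 to 1.71. PTPN22, a phosphatase that works with CSK on LCK and ZAP70, moved both ways. It read 8.86, 8.85 and 8.87 with ethanol and 8.31, 8.53 and 8.17 with dexamethasone at 6 h (-0.52 ± 0.11, adjusted p = 0.0232), and 8.93, 9.02 and 8.87 against 9.50, 9.45 and 9.13 at 24 h (0.42 ± 0.11, adjusted p = 0.0114; 0.02 on the spike scale). All 3 dexamethasone arrays were below ethanol at 6 h and above it at 24 h. The fall at 6 h was past the test in 2 of its 3 tested probe sets, as was the rise at 24 h, where the lowest was at 0.13. The call of the rise was lost with the second probe set. It was also lost without probe sets of the _x_at and _s_at types, which can match several transcripts. The fall was lost without any 1 of the 6 h arrays other than the dexamethasone array of experiment 1 (adjusted p up to 0.0796, without the dexamethasone array of experiment 3). PTPN6 (SHP-1), another brake on proximal signalling, was higher in 3 of 3 experiments at 24 h but did not pass (0.31 ± 0.13, adjusted p = 0.0699; 0.013 when blocked by experiment); it passed without the ethanol array of experiment 3 (adjusted p = 0.0378) or the dexamethasone array of experiment 1 (adjusted p = 0.0439), both at 6 h, which only enter its spread. PTPN7, a phosphatase of MAP kinases, differed by -0.14 ± 0.08 (adjusted p = 0.181).

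The kinases showed 1 large change, in the one that restrains the others. CSK, which places the inhibitory phosphate on LCK and FYN, read 10.34, 10.40 and 10.30 with ethanol and 8.75, 8.93 and 9.32 with dexamethasone at 24 h, a 2.54-fold fall (-1.35 ± 0.14, adjusted p = 1.95e-05). At 6 h it read 10.07, 10.10 and 10.42 against 9.86, 9.99 and 10.03, without overlap and not past the test (-0.24 ± 0.14, adjusted p = 0.383). LCK, the kinase that starts the cascade, read 12.85, 12.87 and 12.93 against 12.62, 12.67 and 12.65 at 24 h, a small fall without overlap (-0.24 ± 0.07, adjusted p = 0.0179). The LCK call was lost without the dexamethasone array of experiment 1 or the ethanol array of experiment 3 (adjusted p up to 0.0611, the latter). FYN, its relative, rose by 0.44 ± 0.10 (with spikes set equal 0.04, adjusted p = 0.871). Of its 5 tested probe sets 2 rose, and without probe sets of the _x_at and _s_at types, which can match several transcripts, its call was lost (0.42, adjusted p = 0.112). ZAP70, the kinase that binds the phosphorylated chains, read 10.09, 10.11 and 10.54 against 9.84, 9.97 and 10.04; it was lower in 3 of 3 experiments and did not pass (-0.30 ± 0.14, adjusted p = 0.102; 0.0172 when blocked by experiment), while its other probe set fell by 0.40 (adjusted p = 0.03). TXK, a kinase of the TEC family, was below the filter: its arrays read 2.20, 2.23 and 2.16 with ethanol and 3.07, 3.16 and 4.59 with dexamethasone at 24 h, so that only 1 of 12 was above 4.

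Of 8 adaptors THEMIS, TRAT1, LAT and SIT1 rose at 24 h and PAG1, SH2D1A and GRB2 fell, with none past the test at 6 h. THEMIS, an adaptor that tunes receptor signals in thymocytes, read 9.11, 9.45 and 9.02 against 10.39, 10.48 and 10.30 at 24 h, a 2.29-fold rise (1.2 ± 0.19, adjusted p = 0.000427), with 0.20 at 6 h. TRAT1 (TRIM), which associates with the receptor complex, read 10.19, 10.47 and 10.18 against 9.66, 10.09 and 9.65 at 6 h and 10.55, 10.50 and 10.38 against 11.25, 11.21 and 11.50 at 24 h. Dexamethasone arrays were thus below all ethanol arrays at 6 h (-0.48 ± 0.13, adjusted p = 0.0629; 0.0241 when blocked by experiment; 0.0196 without the dexamethasone array of experiment 1) and above all of them at 24 h (0.84 ± 0.13, adjusted p = 0.000401). LAT, the membrane scaffold phosphorylated by ZAP70, read 10.74, 10.96 and 11.11 against 11.19, 11.24 and 11.50 at 6 h (0.38 ± 0.12, adjusted p = 0.109, and 0.0192 when blocked). With spikes set equal its 6 h difference was -0.14. At 24 h LAT read 10.45, 10.63 and 10.73 against 11.36, 11.32 and 11.55 (0.80 ± 0.12, adjusted p = 0.000322; with spikes set equal 0.40, adjusted p = 0.0617). The groups were apart at both times, and both tested probe sets of LAT rose at 24 h.

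PAG1, the membrane protein that recruits CSK, read 11.70, 11.67 and 11.46 with ethanol and 11.14, 11.12 and 11.03 with dexamethasone at 24 h (-0.51 ± 0.10, adjusted p = 0.00178), and all 3 of its tested probe sets fell. SH2D1A (SAP), the adaptor of the SLAM receptors, read 12.68, 12.55 and 12.29 against 12.09, 12.14 and 11.95 (-0.45 ± 0.12, adjusted p = 0.00992), and all 4 of its tested probe sets fell. In neither gene did the groups overlap. GRB2, which links LAT to the RAS activator SOS, fell by 0.26 and SIT1, an adaptor that binds SHP-2, rose by 0.31 (-0.09 on the spike scale). Of the 3 tested probe sets of GRB2 2 fell. The GRB2 call was lost without the ethanol array of experiment 2 or 3 or the dexamethasone array of experiment 3 at 24 h (adjusted p up to 0.112, the last). The SIT1 call was lost without the ethanol array of experiment 1 or 3 or the dexamethasone array of experiment 2 or 3 (adjusted p up to 0.0913, without the ethanol array of experiment 3). LCP2 (SLP-76), the cytosolic scaffold that joins LAT, read 9.85, 9.82 and 9.54 against 9.96, 9.65 and 9.79 at 24 h, interleaved (0.07 ± 0.14, adjusted p = 0.721). Of its 5 tested probe sets 1 rose, by 0.85, and the other 4 did not pass.

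**Figure D3:**
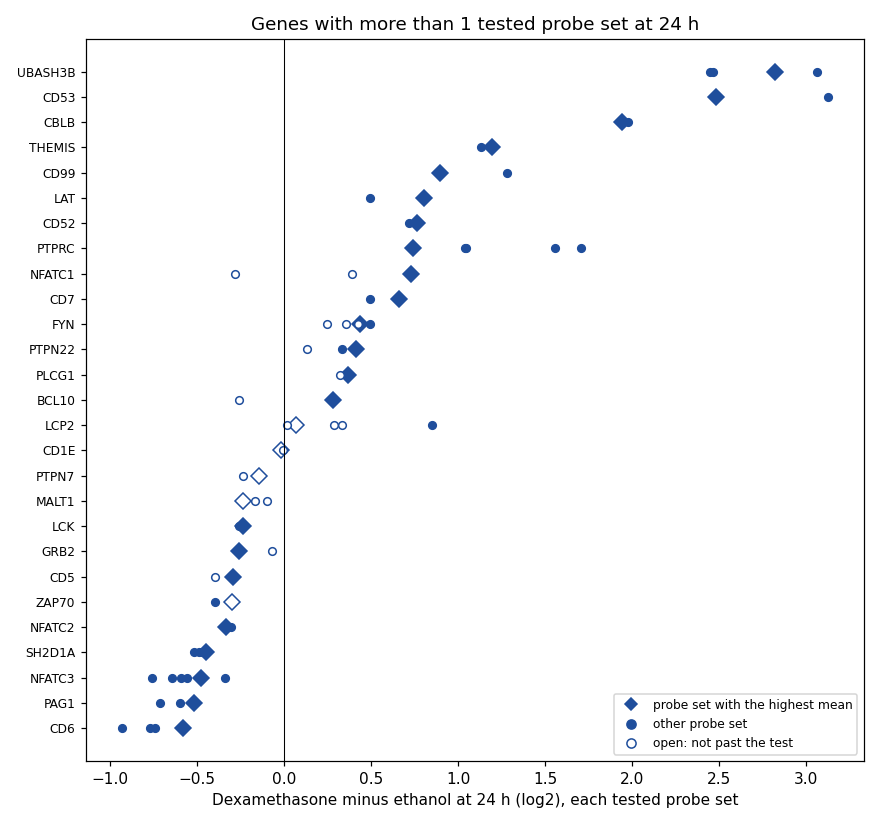
Difference at 24 h (log2, horizontal axis) of each tested probe set of the 27 genes that have several; diamonds are the probe set with the highest mean, filled symbols passed the test. For 15 genes every tested probe set passed in the same direction and for 0 genes did probe sets pass in opposite directions; NFATC1 and BCL10 each have 1 probe set below 0 that did not pass, and on the spike scale every symbol lies 0.40 further left.

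Of the enzymes and exchange factors CBLB and PLCG1 rose and RASGRP1 and VAV1 fell at 24 h. CBLB, a ubiquitin ligase that limits T-cell activation, read 5.87, 6.15 and 6.11 with ethanol and 5.80, 6.28 and 5.78 with dexamethasone at 6 h, interleaved (-0.09 ± 0.15). At 24 h it read 5.97, 6.20 and 5.78 against 7.93, 7.82 and 8.03, a 3.85-fold rise (1.94 ± 0.15, adjusted p = 2.31e-06). RASGRP1, the diacylglycerol-dependent activator of RAS, fell at both times. It read 8.32, 8.12 and 8.30 against 7.59, 7.56 and 7.39 at 6 h (-0.73 ± 0.14, adjusted p = 0.0111) and 8.2, 8.0 and 8.51 against 7.62, 7.62 and 7.97 at 24 h (-0.50 ± 0.14, adjusted p = 0.0116), without overlap at either time. PLCG1, the phospholipase that makes the calcium and diacylglycerol signals, was higher by 0.26 at 6 h (adjusted p = 0.224, and 0.036 when blocked by experiment). With spikes set equal that 6 h difference was -0.25. PLCG1 rose by 0.37 at 24 h (-0.03 on the spike scale), in 1 of its 2 tested probe sets. VAV1, the exchange factor for RAC, fell by 0.25 at 24 h. The 24 h call for PLCG1 was lost without the ethanol array of experiment 1 or 3 or the dexamethasone array of experiment 3 (adjusted p up to 0.0564, the first). The call for VAV1 was lost without the dexamethasone array of experiment 1 or 2 or the ethanol array of experiment 2 or 3 (adjusted p up to 0.095, the first).

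The NFAT transcription factors, which calcineurin sends to the nucleus, divided: NFATC2 and NFATC3 fell at both times and NFATC1 rose at 24 h. NFATC2 read 8.25, 8.27 and 8.21 with ethanol and 7.79, 7.47 and 7.78 with dexamethasone at 6 h (-0.56 ± 0.09, adjusted p = 0.00571). At 24 h it read 8.03, 8.10 and 8.10 against 7.68, 7.85 and 7.69 (-0.33 ± 0.09, adjusted p = 0.013). NFATC3 read 10.86, 10.90 and 10.86 against 10.52, 10.56 and 10.49 at 6 h (-0.35 ± 0.08, adjusted p = 0.0361) and 10.72, 10.91 and 10.63 against 10.36, 10.30 and 10.17 at 24 h (-0.48 ± 0.08, adjusted p = 0.000792). Both were apart from ethanol at both times, and all 6 tested probe sets of NFATC3 fell at 24 h. The 6 h call for NFATC3 was lost without any 1 of the 6 h arrays or without the ethanol array of experiment 1 at 24 h (adjusted p up to 0.104, without the 6 h dexamethasone array of experiment 3). NFATC1 read 7.85, 7.85 and 8.17 against 8.64, 8.69 and 8.71 at 24 h, without overlap (0.73 ± 0.15, adjusted p = 0.00188; with spikes set equal 0.33, adjusted p = 0.0848). Of its 3 tested probe sets the 2 others did not pass, and 1 of them was at -0.28. BCL10, which links the receptor to NF-kB, rose by 0.28 (-0.12 on the spike scale) in 1 of its 2 tested probe sets. The other probe set of BCL10 was at -0.26 and did not pass. MALT1, the partner of BCL10, was lower in 3 of 3 experiments and did not pass (-0.24 ± 0.17, adjusted p = 0.284, and 0.0396 when blocked by experiment).

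The response at 24 h differed from that at 6 h for 12 of the 47 genes, 9 more positive and 3 more negative at 24 h (25.5%), where 27.1% of all genes did, 12.3% and 14.8% by direction. Blocked by experiment the counts were 17 and 6, against 18% and 20.4% of all genes. On the spike scale they were 7 and 1, against 8.13% and 4.68%. The difference of the responses was 2.03 ± 0.21 for CBLB (adjusted p = 0.000115), 1.41 ± 0.43 for CD8A (adjusted p = 0.0372), 1.32 ± 0.19 for TRAT1 (adjusted p = 0.000746), 1.30 ± 0.14 for CD53 (adjusted p = 0.000163), and -1.11 ± 0.20 for CSK (adjusted p = 0.00268). UBASH3B did not pass (0.50 ± 0.26, adjusted p = 0.203, and 0.0076 with the block). The call for CD8A was lost without any 1 of the 24 h arrays, the 6 h ethanol array of experiment 1 or the 6 h dexamethasone array of experiment 0 or 3 (adjusted p up to 0.087, without the 24 h dexamethasone array of experiment 3). This comparison contains the 6 h arrays, whose batches follow the treatment.

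**Figure D4:**
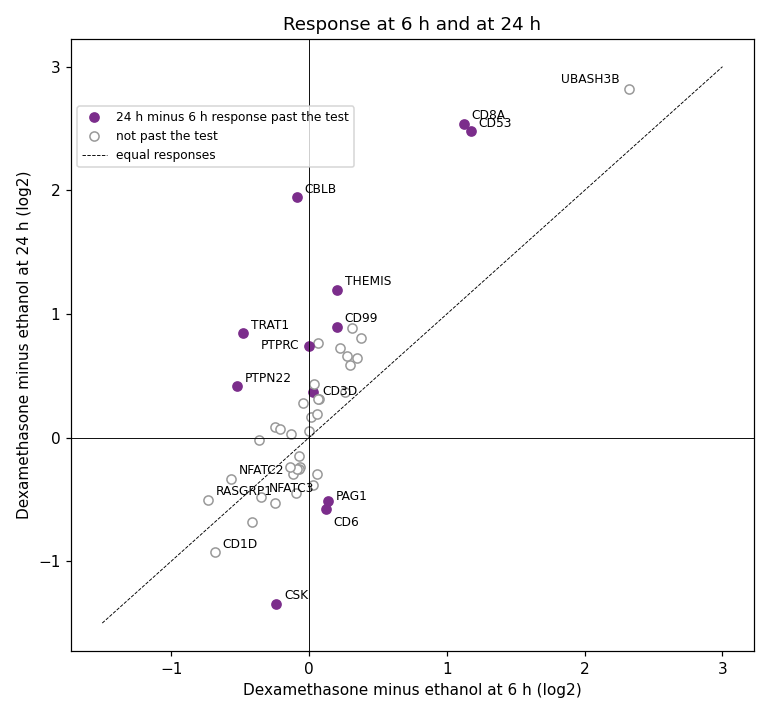
Difference at 6 h (horizontal axis) against difference at 24 h (vertical axis), both dexamethasone minus ethanol in log2, for the 47 tested genes; the dashed line marks equal responses. Filled points are the 12 genes whose 2 responses differed in the test: CBLB lies at -0.09 and 1.94, PTPN22 and TRAT1 are negative at 6 h and positive at 24 h, and UBASH3B lies at 2.32 and 2.82. The spike scale shifts all points by -0.51 and -0.40.

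Other genes of the same pathway, a list of 71 that holds no member, also moved in both directions at 24 h. A probe set was found for 59. Of the 54 tested, 6 rose and 2 fell at 6 h (14.8%, against 6.49% of all genes) and 20 rose and 11 fell at 24 h (57.4%, against 52%), with medians of -0.00 and 0.14. Blocked by experiment 7 rose and 5 fell at 6 h, against 6.08% and 7.53% of all genes. At 24 h with the block 25 rose and 12 fell, without a share of all genes to set beside them. On the spike scale 3 rose and 35 fell at 6 h, where 1.01% and 70.8% of all genes did, and 9 rose and 20 fell at 24 h, where 8.1% and 49.6% did. RCAN1, the inhibitor of calcineurin, rose by 2.01 ± 0.12 at 6 h (adjusted p = 4.98e-06) and by 3.59 ± 0.12 at 24 h, 12-fold (adjusted p = 6.93e-09). SLA, an adaptor that lowers the level of the receptor, rose by 1.60 and 2.46. STIM1, the calcium sensor of the endoplasmic reticulum, rose by 1.26 at 6 h and 0.87 at 24 h, and ORAI1, the channel it opens, was at -0.05 at 6 h and fell by 0.87 at 24 h. ITPR1, the calcium release channel that PLCG1's product opens, fell by 0.62 at 6 h (adjusted p = 0.00235) and rose by 1.31 at 24 h (adjusted p = 9.46e-07); its arrays read 7.27, 7.55 and 7.45 against 6.69, 6.82 and 6.89, then 7.82, 7.95 and 7.85 against 9.14, 9.16 and 9.25. The groups of ITPR1 were apart at both times, in opposite directions. ITPR3, of the same family, fell by 0.56 at 24 h. DGKA, which removes diacylglycerol, rose by 1.55 and NCK2, an adaptor to the cytoskeleton, by 1.18 at 24 h. RHOH, a GTPase needed for ZAP70 function, fell by 0.34 at 6 h and rose by 0.20 at 24 h (-0.20 on the spike scale). Its 6 h call was lost without the ethanol array of experiment 3 or the dexamethasone array of experiment 1 or 3 (adjusted p up to 0.0671, the first), and its 24 h call without any 1 of the 24 h arrays other than the dexamethasone array of experiment 3 (adjusted p up to 0.121, without the dexamethasone array of experiment 1). PTPN2, a phosphatase of LCK, fell by 0.79, HRAS by 0.68 and the adaptor SASH3 by 0.94 at 24 h.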

How the data were processed

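Total RNA of 12 cultures was measured on 12 Affymetrix HG-U133 Plus 2.0 arrays. The authors deposited log2 expression values, 1 per probe set and array; GCRMA in R 2.6 is named per the submitters' processing notes, and whether all arrays were normalized together is not given in the sources used here. Probe sets were named through the platform annotation (41091 of 54675 with 1 symbol). After leaving out 62 control probe sets and probe sets at or above 4 on fewer than 3 arrays, 23265 probe sets entered limma 3.58.1 (R 4.3.3), as 4 group means without a block and with 8 residual degrees of freedom, tested first on simulated data. Adjusted p-values are Benjamini-Hochberg over all 23265.

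The members and gene lists were chosen with earlier results of these data known. Values per array were given for the receptor, coreceptors, LCK, ZAP70, LAT, LCP2 and PTPRC, and for members past the test at either time (at 24 h the 12 largest rises and 12 largest falls); other pathway genes were named by the 5 smallest p in each direction at 24 h and the 3 at 6 h. The experiment numbers pair the arrays: the labels give them as independent experiments, and same-numbered arrays deviated together from their group means (r = 0.417, 0.627 and 0.609 at 6 h, 0.286, 0.238 and 0.424 at 24 h, at most 0.0500 otherwise). The spike scale subtracts the mean of the 12 poly-A control probe sets on each array. Alternatives were the block, other filters, scalings, variance settings and probe sets, a fit of each time alone, and leaving out each array. The number of arrays limits the precision.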

Additional observations from a re-analysis of the deposited data

Results flagged for a closer look

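The genes given here had a response at 24 h that differed from the response at 6 h (24 h minus 6 h difference, limma, Benjamini-Hochberg over all probe sets). The 6 h arrays of each treatment form a batch of their own, and the part of that batch in these values was not tested.

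More positive at 24 h than at 6 h were CBLB by 2.03, CD8A by 1.41, TRAT1 by 1.32, CD53 by 1.30, THEMIS by 0.99, PTPN22 by 0.94, PTPRC by 0.74, CD99 by 0.69 and CD3D by 0.34. CD8A and CD53 were already higher with dexamethasone at 6 h (1.13, not past the test, and 1.18), CBLB, PTPRC and CD3D lay between -0.09 and 0.03 there, and TRAT1 and PTPN22 were below 0. Leaving out 1 array ended the call of CD3D without the 24 h ethanol array of experiment 1 or 2, the 24 h dexamethasone array of experiment 3, the 6 h ethanol array of experiment 1 or the 6 h dexamethasone array of experiment 3 (adjusted p up to 0.0614, without the 24 h ethanol array of experiment 2). It ended that of THEMIS without the 24 h ethanol array of experiment 1 or 3 or the 6 h dexamethasone array of experiment 3 (up to 0.0565, without the 24 h ethanol array of experiment 3), and that of CD8A without any 1 of 9 arrays (up to 0.087, without the 24 h dexamethasone array of experiment 3). More negative at 24 h were CSK (-1.11), CD6 (-0.70) and PAG1 (-0.65). The calls of CD3D (adjusted p = 0.244), PTPRC (0.0518), CD6 (0.147) and PAG1 (0.238) were lost on the spike scale.

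Of the 54 other pathway genes tested, 13 were more positive and 8 more negative at 24 h (38.9%, against 27.1% of all genes), and 8 and 1 on the spike scale. Those described above had these values: the difference was 1.93 for ITPR1 and 1.58 for RCAN1, 1.02 for the adaptor NCK2, 0.86 for SLA, 0.77 for DGKA and 0.54 for RHOH. It was -0.82 for ORAI1, -0.67 for PTPN2, -0.66 for HRAS, -0.58 for SASH3 and -0.46 for ITPR3. With spikes set equal the calls of ORAI1 (adjusted p = 0.0511), SLA (0.0559), RHOH (0.109), PTPN2 (0.147), HRAS (0.183), SASH3 (0.305) and ITPR3 (0.426) were lost. SLAMF6 (1.84) and SLA2 (-0.94), chosen here after their values were seen, passed on both scales.
The call of SLA was lost without any 1 of 8 arrays: the 24 h arrays of experiments 1 and 3, the 6 h arrays of experiment 1, the 6 h ethanol array of experiment 0 and the 6 h dexamethasone array of experiment 3 (adjusted p up to 0.0761, without the 24 h ethanol array of experiment 3).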

How the results depend on the processing

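The number of members past the test at 6 h, 7, became 11 with the replicate block within each time, 33 on the spike scale, 3 when only the 6 h arrays were fitted, and 4 to 7 with 1 array left out. The number at 24 h, 36, became 22 with the hybridization controls set equal and 26 to 37 with 1 array left out (26 without the ethanol array of experiment 3). The number of genes whose responses differed, 12, became 23 with the replicate block within each time and 19 with a block shared across the times. It became 5 with the hybridization controls set equal and 9 to 16 with 1 array left out. No share of all genes is given for the hybridization controls, the shared block, the 6 h arrays alone or the omissions. Whether these counts moved more than those of all genes was therefore not tested. The block within each time ended the call of CD5 alone; the calls it added at 6 h and 24 h are given beside the genes, and it changed no other call at either time. With 1 array left out, 26 of the 36 calls at 24 h and 4 of the 7 at 6 h remained under each of the 12 omissions. These omissions were fitted without the block.

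On the spike scale 21 members turned sign at 6 h and 11 at 24 h. At 6 h 8 of them passed the test once turned, none of them past it before: CD3D (-0.48), CD3G (-0.50), CD38 (-0.49), PTPN6 (-0.44), UBASH3A (-0.51), FYN (-0.48), ZAP70 (-0.45) and SIT1 (-0.45). Of those past the test at 24 h, CD3D, SIT1, PLCG1 and BCL10 turned to -0.0282, -0.0881, -0.0296 and -0.12 on the spike scale and to -0.00196, -0.0619, -0.00338 and -0.0926 with the hybridization controls set equal. The second probe sets of NFATC1 and BCL10 gave -0.28 and -0.26. These scalings subtract the controls' own difference. Over all alternatives and members 995 values at 24 h and 1001 at 6 h kept their direction and side of the threshold, 22 and 63 turned sign without passing the test before or after, 86 and 20 lost the call, and 15 and 36 gained it. The cause of the other changes was not tested. Probe sets near 4 are near the background of these arrays, which limits CD2, CD28, CD96 and TXK. It also limits the fold rise of CD8A, whose ethanol arrays read 4.49 to 5.44.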
